A study of Caenorhabditis elegans with 6 samples.

Results

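The transition zone is the segment at the base of a cilium where Y-shaped links tie the microtubules to the membrane, and it acts as a gate that decides which proteins enter and stay in the cilium. In *C. elegans* it is built by 2 groups of proteins, the MKS module and the NPHP module, named after Meckel syndrome and nephronophthisis, which are human ciliopathies. In hermaphrodites the only ciliated cells are sensory neurons, whose cilia end the dendrites that meet odours and other chemical cues. Loss of a single module in worms leaves cilia that are nearly normal, whereas loss of both together gives short or misplaced cilia.

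The genes described here were taken by symbol from the table of counts per gene, as genes named after these 2 modules. The set is not the whole MKS module, to which some genes described further below also belong. It held 9 of the 46756 genes listed, 7 of the MKS module (*mks-1*, *mksr-1*, *mksr-2*, *mks-2*, *mks-3*, *mks-5* and *mks-6*) and 2 of the NPHP module (*nphp-1* and *nphp-4*). All 9 had enough counts to be tested, although each was expressed at a low level.

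Whole hermaphrodites of strain ACH93 were scored on day 2 of adulthood as high exopher worms, with more than 20 exophers each (3 RNA libraries), or low exopher worms, with fewer than 2 each (another 3). Exophers are large vesicles that muscle cells extrude, and the groups were picked from one age-synchronized genotype to ask which transcripts go with natural variation in exopher output. Both groups carried the same transgenes, a fluorescent proteasome subunit (RPN-5) and a fluorescent mark of the mitochondrial outer membrane, each driven in muscle by the *myo-3* promoter. No treatment was given to either group. The design text speaks of independent samples from separate worm populations, without saying whether high and low libraries of the same number came from one culture. The sources used here do not say how many worms went into a library.

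Library totals ran from 65814796 to 70280441 counts in the high exopher group and from 60511481 to 72909583 in the low exopher group. Of these, the 9 genes together had 1183, 1017 and 1050 counts in the high exopher libraries and 541, 581 and 361 counts in the low exopher libraries (replicates 1, 2 and 3 in that order, here and below). Of 6 genes listed for male ciliated neurons, *cwp-1* had no count and *lov-1* and *pkd-2* had at most 13 in any library. *klp-6*, *cwp-4* and *cil-7* had 10 to 56 counts, with overlapping groups. The list was not limited to genes that are silent in hermaphrodites. The summed level of all 6 was 63.6 to 103 normalized counts in high against 62.1 to 87.8 in low exopher libraries. The summed level of 11 sperm genes was 584 to 879 normalized counts in the high exopher libraries, against 1539 to 3180 in the low exopher libraries. Of the 10 tested, 4 passed the thresholds given below with lower expression (*gsp-3*, *gsp-4*, *msp-142* and *msp-31*), where 2.78% of all genes tested did, and 0 passed without high replicate 1 or 3, with 8 and 7 at an unadjusted p below 0.05. With all libraries, 17% of all genes tested had an unadjusted p below 0.05. The summed level of the 6 vitellogenins, the yolk proteins, was 3.59e+06 to 4.70e+06 normalized counts in high against 5.11e+06 to 6.48e+06 in low exopher libraries, and their median log2 fold change was -0.45. None of the 6 passed in edgeR, DESeq2 or limma-voom, although 5 had an unadjusted p below 0.05 in edgeR and 3 an adjusted p below 0.05 in DESeq2. The part of these genes in the levels of the transition zone genes was not tested.

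Levels are given as normalized counts, which are counts divided by the TMM-scaled library size and multiplied by the mean of those sizes. Fold changes are high over low on the log2 scale, from edgeR's quasi-likelihood test, with p-values adjusted by Benjamini-Hochberg over all 15883 genes tested. A gene passed with an adjusted p below 0.05 and a log2 fold change above 1 or below -1, the limits used by the study.

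Of the 9 transition zone genes, 4 were higher in high exopher worms and 0 were lower. All 9 had a positive log2 fold change, with a median of 1.21, where the median over all genes tested was -0.01. *nphp-1*, *mks-3*, *nphp-4* and *mks-5* rose past both thresholds, by factors between 2.19 and 3.01. With a single library left out the number that passed was 0 (without high replicate 1, 2 or 3 or low replicate 3), 1 (without low replicate 1) or 4 (without low replicate 2). This count of 4 stands beside a background of 2.95% of all genes tested that passed with higher expression and 2.78% that passed with lower expression. The same 4 genes passed on the adjusted p alone, for which the background of higher genes was 3.41%. In 8 of the 9, each high exopher library lay above each low exopher library, as did 11.8% of all genes tested. The exception was *mks-6*.

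**Figure D1:**
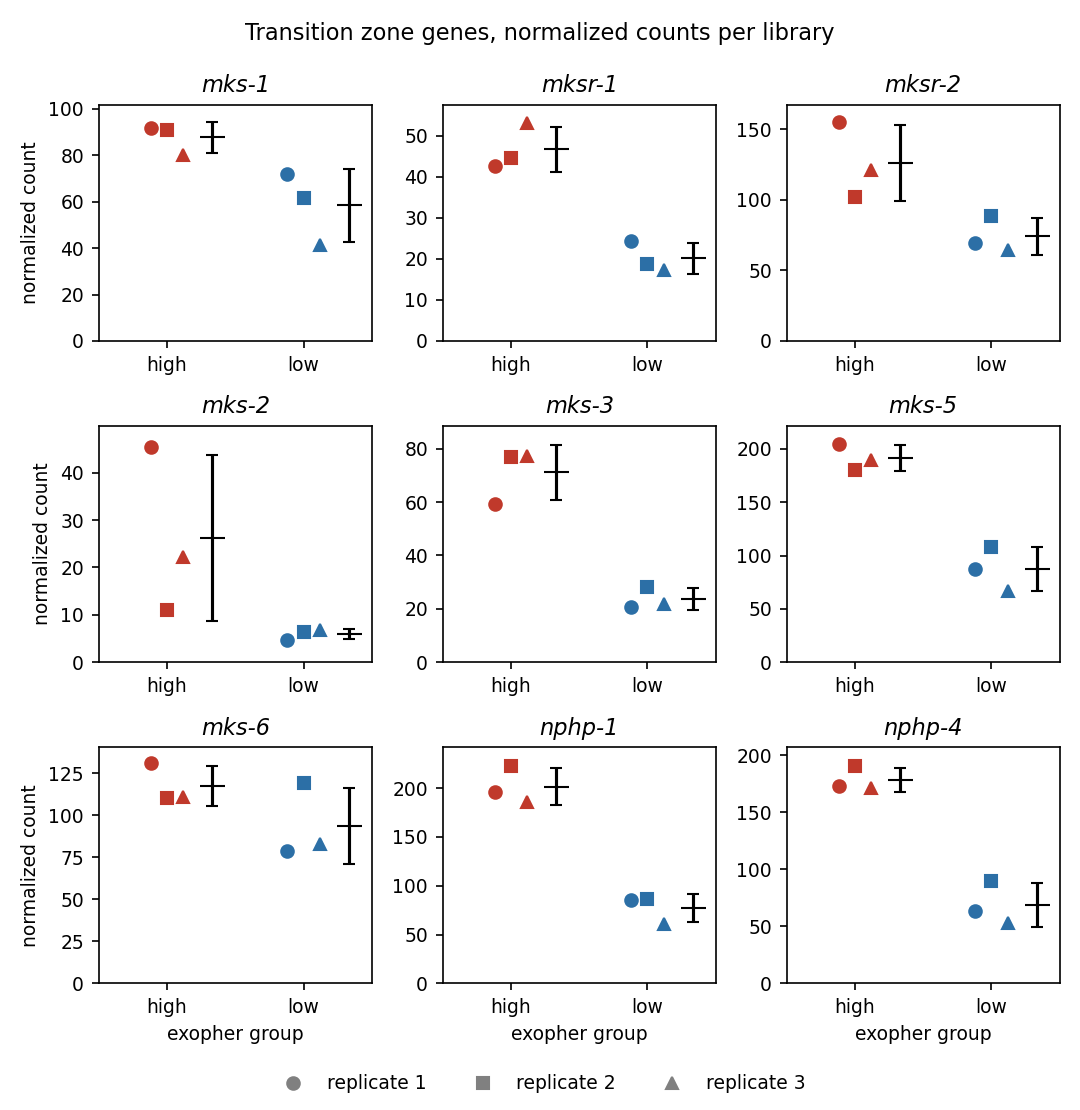
Normalized counts (vertical axis, from 0) of the 9 transition zone genes in the 3 high exopher libraries (red, left) and the 3 low exopher libraries (blue, right); the marker shape gives the replicate number, and the black bars give the mean and SD of each group. The groups are apart in 8 genes and overlap in *mks-6*, where low replicate 2 at 119 lies above high replicates 2 and 3.

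The NPHP module was represented by *nphp-1* and *nphp-4*, whose proteins are found together at the ciliary base of the worm. Normalized counts of *nphp-1* were 196, 222 and 186 in the high exopher libraries, against 85.0, 86.9 and 60.9 in the low exopher libraries. The lowest high exopher library was 2.14 times the highest low one, the widest gap among the 9 genes. *nphp-1* averaged 201 ± 18.9 in high and 77.6 ± 14.5 in low exopher worms (SD, n = 3 each), which is a log2 fold change of 1.37 ± 0.24 (standard error) with an edgeR adjusted p of 0.019. Those of *nphp-4* were 173, 190 and 172 in the high exopher libraries, against 63.5, 90.0 and 52.9 in the low exopher libraries. The high exopher libraries were close together, with a coefficient of variation of 5.85%, whereas the low exopher libraries spread by 27.8%. *nphp-4* averaged 178 ± 10.4 in high and 68.8 ± 19.1 in low exopher worms (SD, n = 3 each), again 1.37 ± 0.27 on the log2 scale (edgeR adjusted p = 0.0252). In WBcel235, *nphp-1* (WBGene00010898) occupies bases 10648893 to 10652256 of chromosome II, reverse strand, with 9 exons. The longest of the genes, *nphp-4* (WBGene00011261), spans 12532 bases on the reverse strand of chromosome V from 11831197 to 11843728. It shares 23 exon bases with *col-158* on the other strand, a collagen gene whose log2 fold change was -0.18 (adjusted p = 0.883 from edgeR).

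MKS-5, related to human RPGRIP1L, is the scaffold on which both modules assemble. *mks-5* had 204, 180 and 190 normalized counts in the high exopher libraries, against 87.8, 108 and 66.7 in the low exopher libraries. Low replicate 2 was nearest to the high exopher worms, but the groups stayed apart. The mean was 191 ± 12.2 in high and 87.4 ± 20.6 in low exopher worms (SD, n = 3 each), or 1.13 ± 0.25 on the log2 scale (edgeR adjusted p = 0.0375). *mks-5* (WBGene00007490) lies on the forward strand of chromosome II from 10720231 to 10729329, and its 3 annotated transcripts cover 4096 exon bases that no other annotated gene shares.

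Among the members of the MKS module that cross the membrane, *mks-3* encodes the worm form of meckelin (TMEM67). Its normalized counts were 59.4, 76.9 and 77.1 in the high exopher libraries, against 20.6, 28.3 and 21.8 in the low exopher libraries. Even the lowest high exopher library was 2.10 times the highest low one. The mean was 71.1 ± 10.2 in high and 23.5 ± 4.12 in low exopher worms (SD, n = 3 each), which is 1.59 ± 0.30 on the log2 scale (edgeR adjusted p = 0.0233). This was the largest change among the 4 genes that passed. *mks-3* (WBGene00018042, chromosome II from 7580144 to 7583655, reverse strand) shares 154 of its 2918 exon bases with F35D2.6 on the other strand. F35D2.6 itself had 21, 3 and 15 counts in the high exopher libraries and 2, 4 and 2 in the low ones. The sources used here do not state that the counting used the strand, so reads from the shared bases cannot be assigned to either gene with certainty.

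*mks-2* encodes the other membrane protein among the 9 genes, related to human TMEM216. It is the shortest gene of the set, with 543 exon bases on chromosome II (WBGene00194710, from 6218622 to 6219446, reverse strand). It was also the least counted, with 49, 11 and 23 reads in the high exopher libraries against 5, 6 and 6 in the low exopher libraries. Scaled to library size these were 45.5, 11.1 and 22.2 normalized counts, against 4.67, 6.28 and 6.90. The low exopher libraries were alike, while high replicate 1 was several times high replicate 2, a coefficient of variation of 66.8%. The 17 reads of the low exopher group carry a 95% exact Poisson interval of 9.90 to 27.2, and the 83 reads of the high exopher group one of 66.1 to 103, both for counting error only. The log2 fold change of *mks-2* was 2.13, the highest of the 9, but its standard error of 0.60 was the largest as well, and the adjusted p was 0.0858 from edgeR. With high replicate 1 left out it was 1.48 (edgeR adjusted p = 0.243).

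*mks-1*, *mksr-1* and *mksr-2* encode the 3 B9 domain proteins of the worm, which act together at the transition zone. *mksr-1*, the relative of human B9D1, had 42.7, 44.5 and 53.0 normalized counts in the high exopher libraries, against 24.3, 18.8 and 17.2 in the low exopher libraries. The groups were well apart, and the log2 fold change was 1.21 (standard error 0.32), yet the adjusted p of 0.0692 from edgeR missed the threshold. DESeq2's Wald test, the test named in the study's methods, gave *mksr-1* an adjusted p of 0.038, which made it the only one of the 9 whose call depended on the tool among edgeR, DESeq2 and limma-voom. *mksr-2*, the relative of B9D2, had 155, 102 and 121 normalized counts in high exopher worms, against 69.1, 88.9 and 64.4 in low exopher worms. High replicate 2 and low replicate 2 were close to each other, at a ratio of 1.15. The change was 0.77 ± 0.27 on the log2 scale (edgeR adjusted p = 0.183). *mks-1*, the worm form of MKS1, had 91.9, 91.0 and 80.0 normalized counts in the high exopher libraries, against 71.9, 61.7 and 41.4 in the low exopher libraries. Here the lowest high exopher library was 1.11 times the highest low one, and the change was 0.58 ± 0.29 on the log2 scale (edgeR adjusted p = 0.389). *mks-1* (WBGene00020100) lies on chromosome III from 3186280 to 3191307, *mksr-1* (WBGene00019364) on chromosome X from 1066606 to 1069129 and *mksr-2* (WBGene00021416) on chromosome IV from 2304292 to 2306547. No other annotated gene shares exon bases with any of them.

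*mks-6*, the relative of human CC2D2A (WBGene00010642, chromosome I from 7160936 to 7166523), differed least between the groups. Its normalized counts were 131, 110 and 111 in the high exopher libraries, against 78.5, 119 and 82.7 in the low exopher libraries. The groups overlapped because low replicate 2 exceeded high replicates 2 and 3. The log2 fold change was 0.33 with a 95% interval of -0.28 to 0.93 (adjusted p = 0.657 from edgeR), so that a change as large as the 1.13 of *mks-5* lies outside it.

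**Figure D2:**
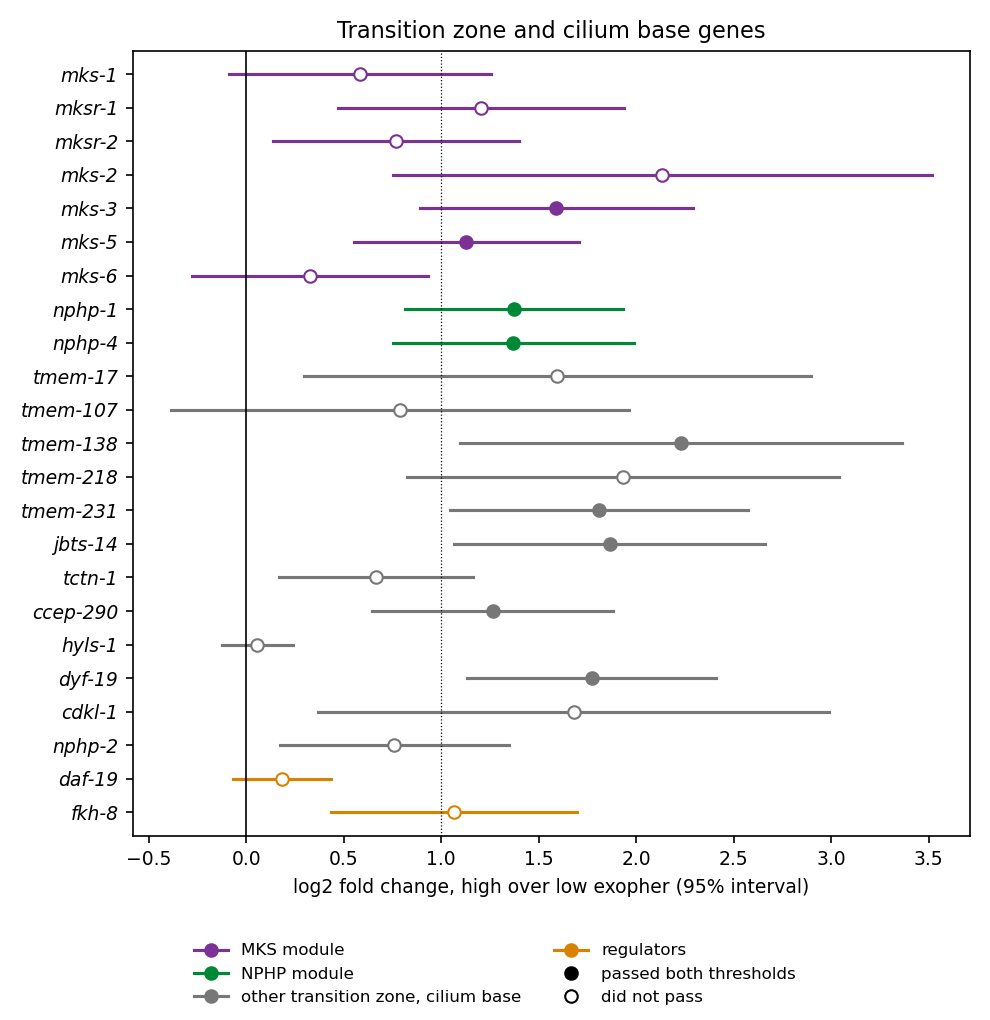
Log2 fold changes, high over low exopher (horizontal axis), with 95% intervals from edgeR for the 9 genes, 12 other genes of the transition zone and cilium base and 2 regulators; filled circles passed both thresholds, the dotted line marks a log2 fold change of 1. The intervals of *mks-1* and *mks-6* include 0, that of *mks-2* is the widest of the 9, from 0.75 to 3.52.

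The shares of single genes in the summed normalized counts of the 9 were compared between the groups as a description. *mks-6* made up 11.9%, 10.7% and 10.95% of the summed normalized counts of the 9 genes in high exopher worms, against 15.5%, 19.6% and 19.9% in low exopher worms. *mks-1* also took a smaller share, 8.37% on average in high and 11.5% in low exopher worms. Shares of *nphp-1* (mean 19.3% in high, 15.3% in low), *nphp-4* (17.1% and 13.4%) and *mks-3* (6.83% and 4.66%) were larger in each high exopher library than in any low one. The NPHP genes together stood at 50.5%, 67.0% and 54.6% of the level of the 7 MKS genes in high exopher libraries, and at 41.6%, 41.02% and 37.8% in low exopher libraries. These shares depend on one another and are not corrected for exon length, and differences between members were not tested.

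The summed level of the 9 genes was 1098, 1028 and 1012 normalized counts in the high exopher libraries, against 506, 608 and 415 in the low exopher libraries. The high exopher libraries were the more uniform, with a mean of 1046 ± 45.6, compared with 509 ± 96.6 in the low exopher libraries (SD, n = 3 each). Low replicate 3 had the lowest level of its group in 6 of the 9 genes and low replicate 2 the highest in 6. When libraries with the same replicate number were set side by side, the high exopher library was higher in 26 of 27 pairs. The exception was *mks-6* in replicate 2. For the 8 genes whose groups were apart, that separation fixed the outcome of each pair. The pairs of different genes also share the same libraries, so the count adds no evidence. Whether members varied together within the groups was described only. With n = 3 per group such correlations are very uncertain, and other pairs of genes were not compared. After the group means were removed, the correlation of log2 levels between 2 members over the 6 libraries had a median of 0.34 across the 36 pairs of genes and ranged from -0.47 between *mks-2* and *mks-3* to 0.90 between *mks-1* and *nphp-1*.

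Per kilobase of exon, the only scale on which levels of different genes are comparable, *mksr-2* was highest, with 183 normalized counts per kilobase in high and 108 in low exopher worms. *nphp-1* followed with 94.97 in high and 36.6 in low. *mks-1*, *mksr-1*, *mks-2*, *mks-5* and *nphp-4* lay close together between 43.4 and 48.4 per kilobase in high exopher worms, but spread from 10.96 (*mks-2*) to 30.96 (*mks-1*) in low exopher worms. *mks-6* had 31.2 in high and 24.9 in low, and *mks-3* was lowest with 24.4 in high and 8.07 in low. Ranked among the 15831 tested genes with an exon length, the 9 lay between the percentiles 6.94 (*mks-3*) and 36.0 (*mksr-2*). RNA of the whole worm cannot tell more ciliated cells from more RNA per ciliated cell.

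Other genes of the transition zone and cilium base were compared from a list of 12, all of which were tested. All 12 were positive, with a median log2 fold change of 1.64, and 5 passed with higher expression, none with lower. Those that passed were *tmem-231*, *jbts-14*, *ccep-290*, *dyf-19* and *tmem-138*. TMEM-231 and JBTS-14 (related to TMEM237) are membrane proteins of the MKS module. *tmem-231* had 116, 78.9 and 114 normalized counts in the high exopher libraries, against 20.6, 36.6 and 31.03 in the low exopher libraries (log2 fold change 1.81, adjusted p = 0.0212 from edgeR). *jbts-14* had 96.5, 62.7 and 55.9 in high, against 22.4, 16.7 and 19.5 in low (log2 fold change 1.87, adjusted p = 0.0219 from edgeR). *ccep-290* encodes the worm CEP290, a core of the transition zone on which the MKS module depends. It had 393, 241 and 275 normalized counts in high, against 145, 134 and 98.8 in low (log2 fold change 1.26, adjusted p = 0.0323 from edgeR). *dyf-19* encodes a protein of the transition fibres, just below the transition zone, and had 329, 244 and 231.3 in high, against 66.3, 103 and 66.7 in low (log2 fold change 1.77, adjusted p = 0.0143 from edgeR). *tmem-138* rested on few reads, with 21.3, 21.2 and 16.4 normalized counts in high and 6.54, 2.09 and 3.45 in low (log2 fold change 2.23, adjusted p = 0.0366 from edgeR).

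The calls changed with the library left out. Of the 12, 0 passed without high replicate 1 or 3, 1 without low replicate 3, 2 without high replicate 2, and 4 without low replicate 1 or 2. At an unadjusted p below 0.05 there were 10 with all libraries, 8 without high replicate 1, 10 without high replicate 3 and 6 without low replicate 3, where the shares of all genes were 17%, 16.2%, 15.7% and 14.4%.

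The other 7 genes of this list did not pass in edgeR's test with all libraries, the filter on low counts and no block. *tmem-218* and *tmem-17* had log2 fold changes of 1.93 and 1.60 (adjusted p = 0.0561 and 0.178 from edgeR) on at most 44 reads in any library. *cdkl-1*, a kinase of the transition zone, had 1.68 with overlapping groups (adjusted p = 0.154 from edgeR). With the replicate number as a block, *tmem-218* and *cdkl-1* passed (edgeR adjusted p = 0.0179 and 0.0296), which made 7 of 12. In that fit 682 of all 15883 genes tested passed with higher expression, against 469 without the block. *tmem-218* also passed in DESeq2's Wald test (adjusted p = 0.0269), in edgeR without the filter on low counts and in edgeR without low replicate 1. The tectonic gene *tctn-1* had 0.66 and *nphp-2*, the inversin relative that marks the segment beyond the transition zone, had 0.76, in both cases with the groups apart (adjusted p = 0.139 and 0.153 from edgeR). *tmem-107*, another membrane protein of the MKS module, had 0.79 with overlapping groups (adjusted p = 0.552 from edgeR). It shares exon bases with F39B2.14 on its own strand. *hyls-1*, whose protein sits in centrioles and is needed for cilia to form, had 2764, 2653 and 2938 normalized counts in high and 2621, 2671 and 2738 in low exopher worms. Its log2 fold change of 0.06 had a 95% interval of -0.12 to 0.24.

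Most genes of the transition zone are switched on in ciliated neurons by DAF-19, an RFX transcription factor, which acts with the forkhead factor FKH-8. *daf-19* had 2235, 2280 and 2454 normalized counts in the high exopher libraries, against 1814, 2064 and 2270 in the low exopher libraries. The groups overlapped (log2 fold change 0.18, 95% interval -0.07 to 0.43, adjusted p = 0.502 from edgeR). The counts do not separate the isoforms of *daf-19*, of which only some act in ciliogenesis. *fkh-8* had 234, 165 and 166 in high, against 98.1, 103.6 and 67.8 in low, with the groups apart but the adjusted p at 0.0631 from edgeR (log2 fold change 1.06). With the replicate number as a block, *fkh-8* passed (edgeR adjusted p = 0.0189), as it did in DESeq2's Wald test.

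**Figure D3:**
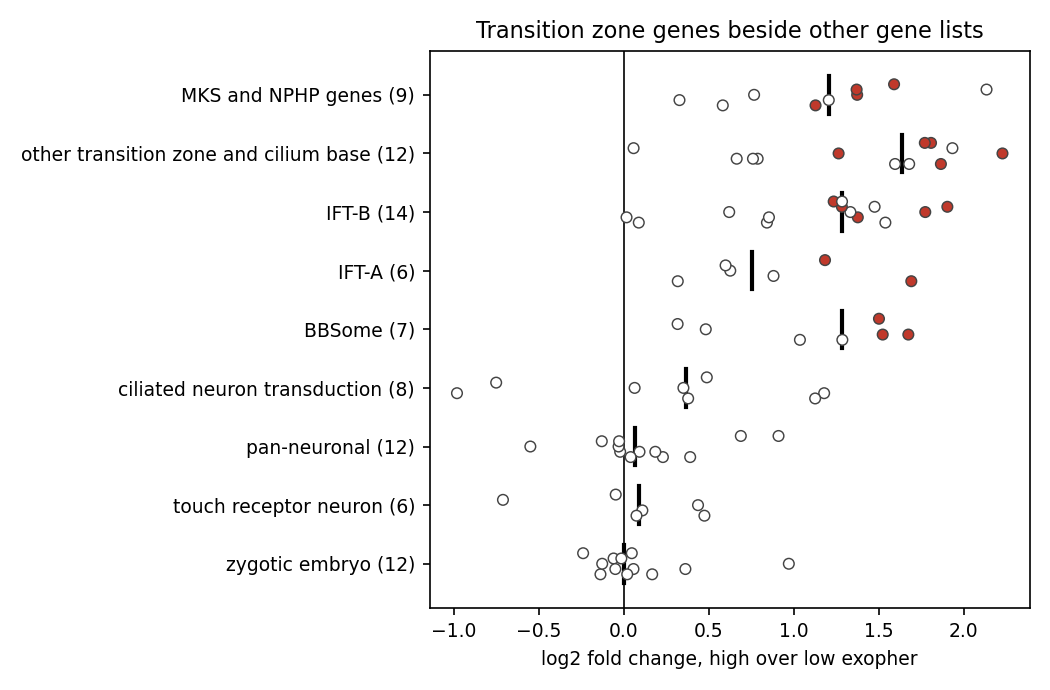
Log2 fold change, high over low exopher (horizontal axis), of each tested gene in 9 lists, with the number tested in parentheses; red circles passed both thresholds with higher expression, black bars mark medians. The MKS and NPHP genes (median 1.21) and the other transition zone, IFT and BBSome genes lie right of 0, whereas the pan-neuronal, touch receptor neuron and zygotic embryo lists centre near 0.

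The remaining parts of the cilium were counted in the same way. In the BBSome, which carries membrane cargo in the cilium, 3 of 7 genes passed with higher expression and the median log2 fold change was 1.29. For IFT-B and IFT-A, the trains of intraflagellar transport, 5 of 14 and 2 of 6 passed, with medians of 1.28 and 0.75. None in these lists passed with lower expression, and 21 of the 27 had an unadjusted p below 0.05 in edgeR, where 17% of all genes tested did. With the replicate number as a block, 8 of the IFT-B genes passed, where 682 of all 15883 genes tested passed with higher expression. Without high replicate 1 or 3, none in the 3 lists passed, without high replicate 2 or low replicate 1 only *bbs-2* or *che-11* did, without low replicate 3 none did, and without low replicate 2 there were 3 in IFT-B, 1 in IFT-A and 2 in the BBSome. The values within the lists reached from 0.02 (*dyf-3*) to 1.90 (*ifta-2*) in IFT-B, from 0.32 (*ift-43*) to 1.69 (*che-11*) in IFT-A and from 0.32 (*bbs-5*) to 1.67 (*bbs-2*) in the BBSome. Differences between the transition zone and these lists were not tested.

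Marker genes of several kinds of neuron were set beside the transition zone genes. Of 12 pan-neuronal genes, 0 passed and 7 had a positive log2 fold change, with a median of 0.07. Their summed level was 18904 to 19837 normalized counts in high against 19416 to 21143 in low exopher libraries. Most of this sum was 1 gene, *snb-1*, with 12675 to 13493 in any library, so it says little about the others. At an unadjusted p below 0.05 there were 3 of the 12 in edgeR, where the share of all genes tested was 17%. *unc-10* and *sng-1* were higher (log2 fold changes 0.69 and 0.91) and *egl-3* was lower (-0.55). None of the 6 touch receptor neuron genes passed (median 0.09, 0 with an unadjusted p below 0.05). Of 9 sensory transduction genes of ciliated neurons, 8 were tested and 0 passed, with a median of 0.36. These 8 went both ways, from -0.98 (*gpa-13*) to 1.18 (*tax-4*), and 2 had an unadjusted p below 0.05, beside the same 17%. With the replicate number as a block, 1 passed, *daf-11* (edgeR adjusted p = 0.0478), a guanylyl cyclase. Of all 15883 genes tested, 682 passed with higher expression in that fit. DESeq2's Wald test called 0 genes past both thresholds in these 3 lists, as did limma-voom. On the adjusted p alone DESeq2 had 2 pan-neuronal genes, *unc-10* (0.0312) and *sng-1* (0.0485), both with each high exopher library above each low one. The edgeR fit with the block had 1, *egl-3* (adjusted p = 0.0193), which was lower in high exopher worms. The part of the markers in the levels of the transition zone genes was not tested.

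Ciliated neurons also arise in embryos, which adult hermaphrodites carry. Of 12 zygotic embryo genes, 0 passed both thresholds in edgeR with TMM, DESeq2 or limma-voom, 1 had an unadjusted p below 0.05, and their median log2 fold change was 0.00. Their summed level was 6744, 9193 and 5934 normalized counts in the high exopher libraries, against 5804, 6962 and 4675 in the low exopher libraries. Of the 12, 6 had a positive log2 fold change. The list was not divided by embryonic stage, so its median does not give the level of late embryos. The summed groups overlap. The high exopher library had the higher sum at each replicate number, but only with *hch-1* in the sum. *hch-1*, the protease of hatching that is made in late embryos, was higher, with 2747, 3351 and 2430 normalized counts in high, against 1419, 1878 and 1053 in low. The change was 0.97 ± 0.21 on the log2 scale (edgeR adjusted p = 0.0376), past the adjusted p alone. It passed both thresholds with library totals in place of TMM and without low replicate 2, and missed an adjusted p of 0.05 when any other single library was left out. The part of late embryos in the levels of the transition zone genes was not tested.

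Outside all lists, the gene whose log2 levels over the 6 libraries were most like the mean standardized profile of the 9 was *nab-1*, the worm neurabin, an actin-binding scaffold (Pearson r = 0.999). It had 2837, 2407 and 2516 normalized counts in the high exopher libraries, against 1109, 1413 and 986 in the low exopher libraries. *gei-13* and M03F4.6 came next (both r = 0.998). These correlations describe 6 libraries that fall into 2 groups, and 43 of the 15776 genes compared had r above 0.99.

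**Figure D4:**
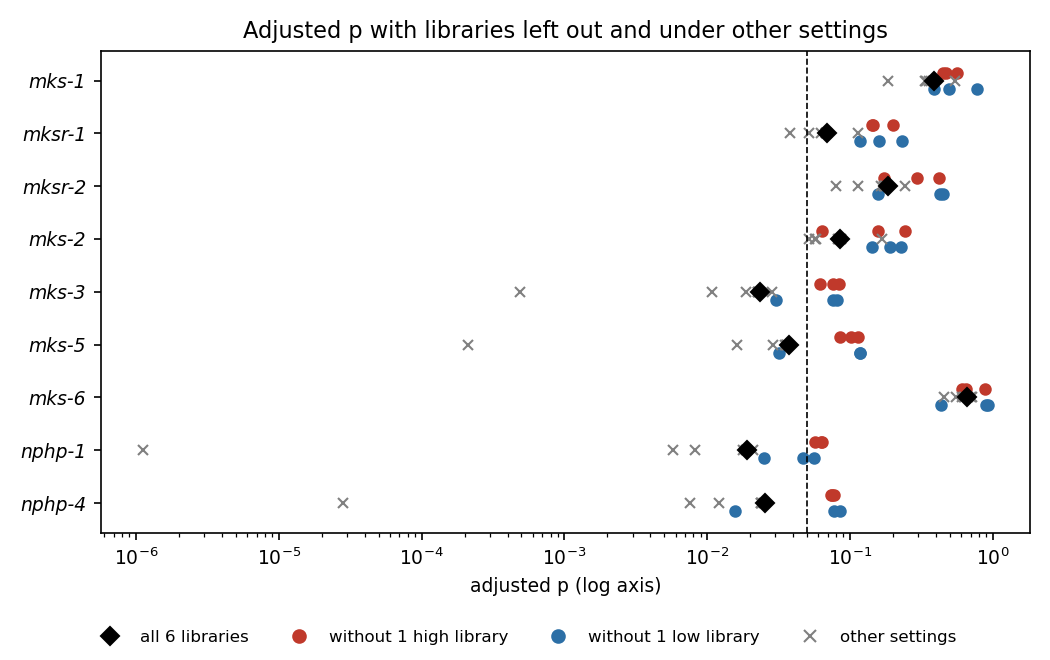
Adjusted p (log axis) of the 9 genes with all 6 libraries (black diamonds), without 1 high exopher library (red), without 1 low exopher library (blue) and under 7 other settings (grey crosses); the dashed line marks 0.05. For *nphp-1*, *nphp-4*, *mks-3* and *mks-5*, the red circles all lie right of the line, between 0.0573 and 0.114.

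The direction of all 9 genes was the same with any 1 library left out, but the calls were not. Where 0 of the 9 passed (any high replicate or low replicate 3 left out), 6 or 7 had an unadjusted p below 0.05, as did 14.4% to 17.8% of all genes in the same fits. Without low replicate 1, *nphp-1* alone passed, and without low replicate 2 the 4 genes all passed. The adjusted p of the 4 genes reached at most 0.0633 (*nphp-1*), 0.0832 (*mks-3*), 0.0847 (*nphp-4*) and 0.118 (*mks-5*), and their log2 fold changes stayed between 0.97 (*mks-5*) and 1.73 (*mks-3*).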

How the data were processed

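RNA was sequenced from 3 high exopher and 3 low exopher libraries of poly(A)-selected RNA. Per the study's methods and the submitters' processing notes, reads were trimmed with Trimmomatic 0.36, aligned to the Ensembl *C. elegans* genome (release not given in the sources used here) with STAR 2.5.2b, and uniquely aligned reads in exons were counted with featureCounts (Subread 1.5.2). The authors deposited raw counts per gene, which were used here, and a table scaled by DESeq2 size factors, which was not. Reads with several alignments were dropped, which lowers the counts of genes with close copies.

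Counts were filtered with filterByExpr, scaled by TMM and compared with edgeR 4.0.16's robust quasi-likelihood test in R 4.3.3, high over low, without covariates. The standard error was the log2 fold change over the square root of F. DESeq2 1.42.0 and limma 3.58.1 were alternatives, with other scalings, no filter, a block for the replicate number and the loss of any one library. The scripts were tested on simulated data. Symbols, positions and exon lengths come from Ensembl release 115 of WBcel235. *ccep-290* stood for CEP290. Sequences were not used here, so a planned search for promoter motifs was not run.

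The members and gene lists were chosen with earlier results of these data known. Named are all 9 members, the other transition zone genes and regulators, the extremes of the other cilium lists and the 3 genes most like the members' profile; marker genes named beside these were chosen after their values were seen.

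The labels number the replicates. After group means were removed, log2 values of high and low libraries with number 1, 2 or 3 in common had r = 0.265, 0.228 and 0.306 across genes. Between unlike numbers r was negative, but removing the group means ties these values together, so they are not separate evidence. The numbers may therefore pair the libraries. This pairing was inferred from the data, and the main test did not use it. With the replicate number as a block, 682 genes passed with higher and 584 with lower expression, against 469 and 442 without it.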

Additional observations from a re-analysis of the deposited data

How the results depend on the processing

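With the replicate block, 4 members passed with higher expression, as did 682 of all 15883 genes tested. With lower expression 0 members passed, and no call of a member changed. The same 4 passed with DESeq2's or upper quartile factors, library totals alone, no filter on low counts, limma-voom or no fold minimum. DESeq2's Wald test gave 5, adding *mksr-1*, where 651 of all 15883 genes tested passed with higher expression. With 1 library left out, between 0 and 4 members passed, with or without the fold minimum. Over these settings no member changed direction, and the median log2 fold change of the 9 stayed between 1.11 and 1.29. The loss of a library also moved the calls among all genes, which were 469 higher and 442 lower with all 6 libraries, to between 5 and 465 higher and between 0 and 663 lower. Fits without a library had 2 libraries in an arm and tested slightly more genes. Depth limited *mks-2* most, with at most 6 reads in any low exopher library.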
